A study of Homo sapiens with 2 samples.

Results

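The genes described here build and run cilia and flagella. They are 54 genes chosen by symbol for axonemal dyneins and their assembly factors, radial spokes, the ciliary and flagellar protein C4orf47, intraflagellar transport (IFT), the BBSome, the transition zone and the transport motors. The list was drawn up with results of these data known, and the study itself draws attention to ZNF676 peaks at C4orf47 and DNAH11. Those peaks therefore support nothing about the list. All 54 were found among the 20098 protein-coding genes of chromosomes 1 to 22 and X in GENCODE release 44 (GRCh37). The study deposited ChIP-exo peak lists, with 6142 peaks of ZNF676 and 248 of ZNF728, which are KRAB zinc finger proteins, a family of DNA-binding repressors. Both came from HEK293T cells, a human embryonic kidney line, carrying a lentiviral transgene for the HA-tagged protein (ZNF676-3HA or ZNF728-3HA). Both lines were kept in puromycin (1 µg/ml) for 7 days, induced with doxycycline (1 µg/ml) and fixed in 1% formaldehyde for 10 min. There was 1 library per protein and no replicate, so values are descriptions of these libraries, and the protein was overexpressed from the transgene. ChIP-exo trims the precipitated DNA with an exonuclease up to the bound protein. The lists give no read counts, which leaves the depth unknown, and no measure of expression, and whether HEK293T cells express the 54 genes was not examined here.

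Motile cilia and sperm flagella share an axoneme, a bundle of microtubule doublets that dynein motors on their outer and inner arms slide past each other, with radial spokes carrying signals from the central pair. Cilia are built and maintained by IFT, in which the IFT-B complex travels to the tip with kinesin-2 and the IFT-A complex returns with dynein-2, while the BBSome moves membrane proteins and the transition zone gates entry at the base. LTR12C is the long terminal repeat of an ERV9-related endogenous retrovirus that can act as a promoter. The study discusses cilium genes in connection with LTR12C insertions, and the question put to the lists was how often, and where, the 2 proteins had peaks at these genes. A peak was placed at its midpoint and counted at a transcript start (within 500 bp of any annotated start), in the gene body, or within 50 kb of a start.

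The stretches of sequence printed here are those beside the starts of C4orf47 and DNAH2, the 2 genes with a peak close to their canonical start. At C4orf47 the stretch lies between its first start and the starts of UFSP2, which is transcribed the other way, and is part of the peak with the highest score at any of the 54 genes. At DNAH2 it is the sequence that ends at the base before the first start, inside the ZNF676 peak there. Capitals mark the word GTTGCC, read on either strand, and, at DNAH2, the longer word GTTGCCATG in which it lies, a form of the X-box bound by RFX factors, which are known activators of cilium genes.
C4orf47, chr4:186347134-186347402, plus strand: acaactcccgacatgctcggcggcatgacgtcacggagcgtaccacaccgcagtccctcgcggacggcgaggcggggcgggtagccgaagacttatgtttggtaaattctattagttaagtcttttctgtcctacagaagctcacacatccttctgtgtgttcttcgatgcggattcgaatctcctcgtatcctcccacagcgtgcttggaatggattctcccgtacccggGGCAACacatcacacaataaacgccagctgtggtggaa
DNAH2, chr17:7620812-7621061, plus strand: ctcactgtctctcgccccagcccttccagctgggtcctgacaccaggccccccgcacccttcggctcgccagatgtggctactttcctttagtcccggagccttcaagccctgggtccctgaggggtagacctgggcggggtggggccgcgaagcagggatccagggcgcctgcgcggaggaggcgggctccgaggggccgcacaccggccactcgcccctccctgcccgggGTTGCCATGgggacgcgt

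ZNF676 had a peak at a transcript start of 3 of the 54 genes, C4orf47, DNAH2 and BBS9 (5.56%, 95% exact binomial interval 1.16 to 15.4%), where 8.24% of all protein-coding genes had one. With C4orf47 left out of the list, 2 of 53 had one. It had a peak in the body of 16 (29.6%, 18.0 to 43.6%), against 15.6% of all protein-coding genes, and within 50 kb of a start of 25 (46.3%, 32.6 to 60.4%), against 34.8%. This last interval includes the 34.8%. In all, 26 genes had a peak in at least 1 of these places and 28 had none. Of the 26, 15 had a peak both in the body and within 50 kb, 10 within 50 kb only, and DNAH14 in the body only. The intervals treat the genes as a sample and cover no difference between libraries.

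The background depended on base composition, so genes of like promoter GC content (in deciles, over 500 bp to either side of the canonical start) were set beside the 54. The share of other genes with a peak at a start rose from 1.55% (1.06 to 2.20%) in the lowest decile to 26.2% (24.3 to 28.2%) in the highest. The cilium and dynein genes had a median promoter GC content of 57.9% (38.6 to 72.3%), against 61.2% for all genes, and none was in the highest decile. Genes of like GC content gave 2.67 genes with a peak at a start, beside the 3 observed, so the start count was close to this background. They gave 17.1 within 50 kb, beside 25, and 6.74 in the body, beside 16. Matching on quintiles of GC content and of the number of transcript start windows within 50 kb gave 18.7 within 50 kb. The count of 25 used every annotated start. With canonical starts alone, 17 of the 54 had a peak within 50 kb, where 29.6% of all protein-coding genes had one. The 54 genes had a median length of 73.2 kb (3.94 to 768 kb) against 27.3 kb for all genes. The share of other genes with a body peak was 4.26% in the lowest quintile of gene length and 37.3% in the highest, which held 25 of the 54 genes and 12 of the 16 with a body peak. Matching on quintiles of GC content gave 6.75 genes with a body peak, and matching on quintiles of both GC content and gene length gave 11.6. What part length has in the count of 16 was not tested. Per length, the bodies held 3.32 peaks per Mb (95% exact Poisson interval 2.10 to 4.98, 23 peaks) against 2.68 (2.60 to 2.77, 3495 peaks) in all protein-coding genes, and the interval for the 54 genes includes the value for all genes.

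The nearest ZNF676 peak lay 66037 bp from a start at the median of the 54 genes, from 53 bp at C4orf47 to 924605 bp at TMEM67, and 97667 bp at the median of all protein-coding genes. Beyond the 3 genes with a peak within 500 bp, the next were DNAH10 and RPGRIP1L, each with a peak 1086 bp from a start. From the canonical start, the DNAH10 peak lay 72052 bp away and the RPGRIP1L peak 1135 bp. At the edge of the 50 kb window, DNAH17 lay just inside (48096 bp) and DNAH14 just outside (54916 bp). The plot of the nearest peak to each gene shows that no role held only bound or only unbound genes apart from the axonemal ruler and the chaperonin-like BBS genes, with 2 genes each and no peak, and C4orf47 alone.

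The 44 distinct ZNF676 peaks at, in or within 50 kb of these genes had scores from 80.28 to 3100 with a median of 92.7, beside 80.01 to 3100 with a median of 95.1 for the whole list. The score is the authors' own and by the convention of the peak caller grows with the evidence against the input. Only 2 of the 44 reached 200 (4.55%), whereas 9.05% of the list did. They were the peaks at C4orf47 and upstream of DNAH11, both genes that the study points out. Most peaks at the cilium genes were therefore among the common, low-scoring peaks of the list, apart from these 2. Of the 23 peaks in gene bodies, 21 were intronic, and the other 2 lay in untranslated exon sequence of C4orf47 and RPGRIP1L. A start of another protein-coding gene lay within 500 bp of 8 of the 44 peaks (18.2%), with scores from 91.2 to 3100. Counting any protein-coding start, that of the cilium gene itself included, 9 of the 44 (20.5%) lay at one, beside 25.1% of all ZNF676 peaks.

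**Figure D1:**
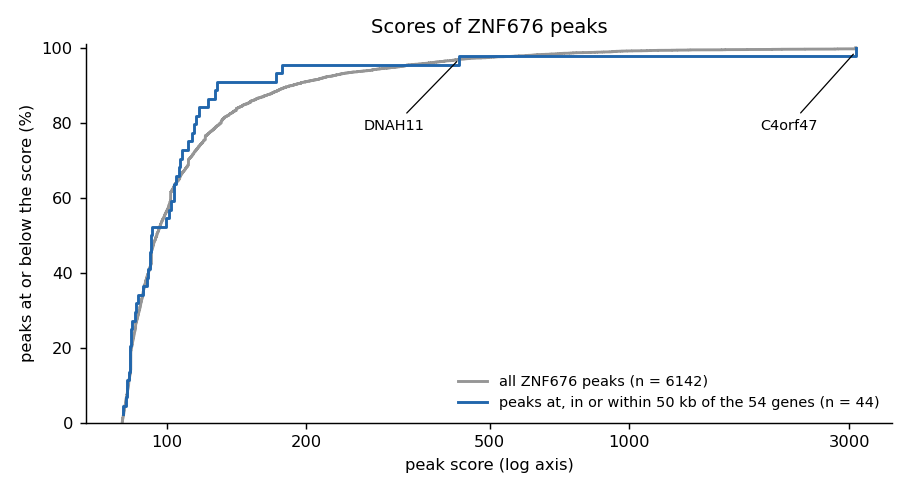
Cumulative share (%) of ZNF676 peaks at or below each score (log axis), for all 6142 peaks (grey) and the 44 peaks at, in or within 50 kb of the cilium and dynein genes (blue). Both curves overlap up to about 100, and only the peaks of DNAH11 and C4orf47 pass 200 in the blue curve.

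The axonemal dynein heavy chains are the motor subunits of the arms. Of all protein-coding genes, 8.24, 15.6 and 34.8% had a peak at a start, in the body and within 50 kb. Of the 13 heavy chains in the list, 1, 5 and 6 had one in these places, and 6 had none. Their bodies held 1.44 peaks per Mb (0.469 to 3.37, 5 peaks over 3.46 Mb), and this interval also includes the 2.68 per Mb of all genes. DNAH2, an inner-arm heavy chain (chr17:7621062-7737060, plus strand), had a peak at chr17:7620370-7621213 with a score of 122.65, higher than 77.0% of the list, centred 271 bp upstream of its canonical start. No start of another gene lay within 500 bp of it, and it held GTTGCCATG once and CCAAT, the core of the NF-Y site, 3 times. A second, intronic DNAH2 peak scored 86.59. The peaks of DNAH10, an inner-arm chain, lay in an intron (117.1) and past the end of the gene (92.08), the latter over CCDC92. Single intronic peaks scored 127.2 in DNAH14 and 111.35 in DNAH8, an outer-arm chain of sperm, and together with those of C4orf47, DNAH10 and BBS7 (114.43, intronic) these were the 5 genes with the highest-scoring body peaks. DNAH7 had a peak of 85.52 31266 bp upstream of its start, and DNAH17 one of 91.21 at the start of PGS1. DNAH1, DNAH3, DNAH5, DNAH6, DNAH9 and DNAH12 had none, with nearest peaks from 131564 bp (DNAH5) to 349306 bp (DNAH9).

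DNAH11, an outer-arm heavy chain of respiratory cilia (chr7:21582657-21941457, plus strand), had the second highest peak of the 54 genes. The study itself reports a ZNF676 peak and an LTR12C at this gene. The peak lay at chr7:21576363-21577035, scored 429.55, above 96.9% of the list, and was centred 5958 bp upstream of the start, with no other start nearby. An LTR12C-like copy (chr7:21575274-21576724, minus strand, against the direction of the gene) held 53.8% of it, and the midpoint was 26 bp inside the 5′ end of the copy. A second DNAH11 peak in an intron scored 92.55 and touched no copy.

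C4orf47 encodes a protein of cilia and sperm flagella (chr4:186347403-186370980, plus strand). Its peak at chr4:186347109-186347908 scored 3100, the ceiling of the list, reached by 18 of 6142 peaks. The midpoint was 53 bp past the nearest start and 100 bp past the canonical start, in untranslated sequence of the first exon, and the UFSP2 starts also lay within 500 bp, so the peak cannot be assigned to one of the 2 genes. No LTR12C-like copy lay under the peak or within 50 kb. The word GTTGCC was counted after this peak had been seen, and 1053 of the 6142 peaks (17.1%) held it at least once. The C4orf47 peak spans 800 bp, against a median of 344 bp in the list. It held GTTGCC 4 times, a count reached by 2 of the 6142 peaks, itself included. One copy is in the stretch printed above, and 2 are within a 15-base word, shown here because it occurs in the peak 2 times, with 19 bp between the 2 first bases, beginning 75 and 94 bp past the canonical start, close to the midpoint of the peak.
C4orf47 repeated word, chr4:186347483-186347497 and chr4:186347502-186347516, plus strand: agctggGGCAACctg

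Of the intermediate and light chains, which anchor the outer arm, DNAI1 had a peak of 85.25 centred 1914 bp upstream of its nearest start, inside FAM219A, and DNAI2 one of 104.39 at 43157 bp, inside BTBD17. DNAL1 had none within 50 kb. Among the assembly factors, which fold and preassemble dynein arms in the cytoplasm, DNAAF1 had a peak (100.95) at the start of MBTPS1, 28555 bp away, while DNAAF2 and DNAAF3 had none. The ruler proteins CCDC39 and CCDC40, which set the spacing of arms and spokes, had no peak in any place. Of the 4 radial spoke genes, RSPH1 had a peak of 115.5 at the start of SLC37A1, RSPH4A had 2 (92.88 and 80.31), and RSPH3 and RSPH9 had none.

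The IFT-B genes counted 0 of 10 at a start, 2 in the body and 5 within 50 kb. The shares over all protein-coding genes were 8.24, 15.6 and 34.8%. IFT81, which binds tubulin cargo, had 2 intronic peaks (106.7 and 106.36). They were centred 1336 and 4246 bp past a start, and 48874 and 51784 bp past the canonical start. IFT80 had 2 intronic peaks of 83.11 and 81.86. The highest IFT-B scores belonged to peaks at starts of other genes, 177.74 at MYBL2 near IFT52 and 172.01 at POLDIP2 and TMEM199 near IFT20. One of 3 IFT-A genes, IFT43, had an intronic peak (108.05). The 7 BBSome genes counted 1 at a start, 5 in the body and 5 within 50 kb, beside the same shares over all genes, and no role was tested. Their bodies held 9 peaks over 1090 kb, with scores from 80.28 to 114.43, where the bodies of all protein-coding genes held 2.68 per Mb. No interval was computed for this role, and the count is small. BBS9 (chr7:33149169-33916792, plus strand), the longest of the 54 genes at 768 kb, held 4 of the 9. Its start peak at chr7:33148666-33149234 scored 99.71 and was centred 219 bp upstream of the start of a longer transcript and 20226 bp from the canonical start. The starts of RP9, transcribed the other way, lay within 500 bp as well, so this peak too is shared by a divergent pair. Of the 1657 genes with a ZNF676 peak at a start, 292 (17.6%) shared the peak with a start of another protein-coding gene. BBS5 had 4 peaks from 88.86 to 113.51, BBS4 2, BBS2 and BBS7 1 each, and BBS1 and TTC8 none. The chaperonin-like BBS10 and BBS12, which assist BBSome assembly, had none. In the transition zone, RPGRIP1L had 2 peaks of 81.54 and 83.53, and CEP290, TMEM67 and NPHP4 had none. Of the motors, DYNC2H1, the dynein-2 heavy chain, had 1 (82.61) and KIF3A, a kinesin-2 motor, had none.

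ZNF728 had a peak at no transcript start of the 54 genes (0 of 54, upper bound of the interval 6.60%), where 0.0796% of all protein-coding genes had one. It had a peak in 1 body (1.85%, 0.0469 to 9.89%; 0.383% of all genes) and within 50 kb of 1 gene (1.3% of all genes), in both cases DYNC2H1, and genes of like GC content gave 0.646 within 50 kb. The peak, at chr11:103213549-103214017, was intronic, scored 88.1, above 10.5% of the ZNF728 list, and lay 15188 bp upstream of the nearest start and 233628 bp from the canonical one. With 248 peaks in the list, a count of 0 or 1 is near the background, and the protein and the library, as sources of the short list, cannot be told apart.

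LTR12C-like copies were found by alignment to the LTR12C region amplified in the study, and 3625 copies covered at least 50% of it. The study counts fewer LTR12C integrants. The copies were not assigned to LTR12 subfamilies and may include others than LTR12C. Those in or within 50 kb of the 54 genes were 72.3 to 81.3% identical to the region. Of the 54 genes, 9 (16.7%, 7.92 to 29.3%) had at least 1 copy within 50 kb of a start, against 12.0% of all protein-coding genes, and the interval includes the latter. Together they had 11 copies, 9 of them with the 5′ extension (at least 50% of the first 600 bp aligned). A ZNF676 peak, with at least 50% of its length inside the copy, lay on 1 of the 11 (9.09%, 0.230 to 41.3%), the copy upstream of DNAH11. Among copies away from the 54 genes the share was 10.5% (9.54 to 11.6%, 380 of 3611), and 15.4% (13.9 to 16.9%, 372 of 2422) with the extension. A copy with the extension further inside BBS9, 61132 bp from a start, also held a peak (80.28, 78.9% inside the copy, centred 98 bp from its 5′ end), which makes 2 bound among 10 such copies at these genes. Bound here means holding a peak. The authors discarded reads of low mapping quality, which can remove reads from repeat copies that resemble each other. A copy without a peak is therefore not shown to be unbound.

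The base at position 46, counted from 1 at the 5′ end of the amplified region, separated copies away from the 54 genes. Of those with the extension, 341 of 954 that kept the base of the amplified region had a peak (35.7%, 32.7 to 38.9%), against 31 of 1468 with another base or a gap (2.11%, 1.44 to 2.98%). The position was picked as the largest difference (33.6 percentage points) among 251 positions with enough copies in both classes, so this difference is a description, and the next were 22.9 points at position 35 and 20.4 at position 394. At the cilium and dynein genes, the base was kept in 3 of the 10 copies. Of these, 2 held a peak, at DNAH11 and BBS9, while the copy past the end of DNAH14 held none. The BBS9 peak scored 80.28, above only 1.22% of the list, whose lowest score was 80.01. The other 7 copies carried another base there, the same one in all 7, and held none. Of copies elsewhere with the extension and that same base, 14 of 1103 held a peak (1.27%, 0.696 to 2.12%). The 7 copies were 2 at DNAH3, 2 at DNAI1, and 1 each at DNAH10, DNAH12 and DNAAF1. The copy closest to a start was that of DNAH3, an inner-arm heavy chain, 1569 bp upstream of the canonical start, with the nearest ZNF676 peak 344963 bp away. At DNAI1, copies lay 1705 and 18153 bp from a start, and at DNAH12, an inner-arm chain, 47591 bp. Whether this base sets binding at these genes was not tested, nor was how well reads could be placed on each class of copies.

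**Figure D2:**
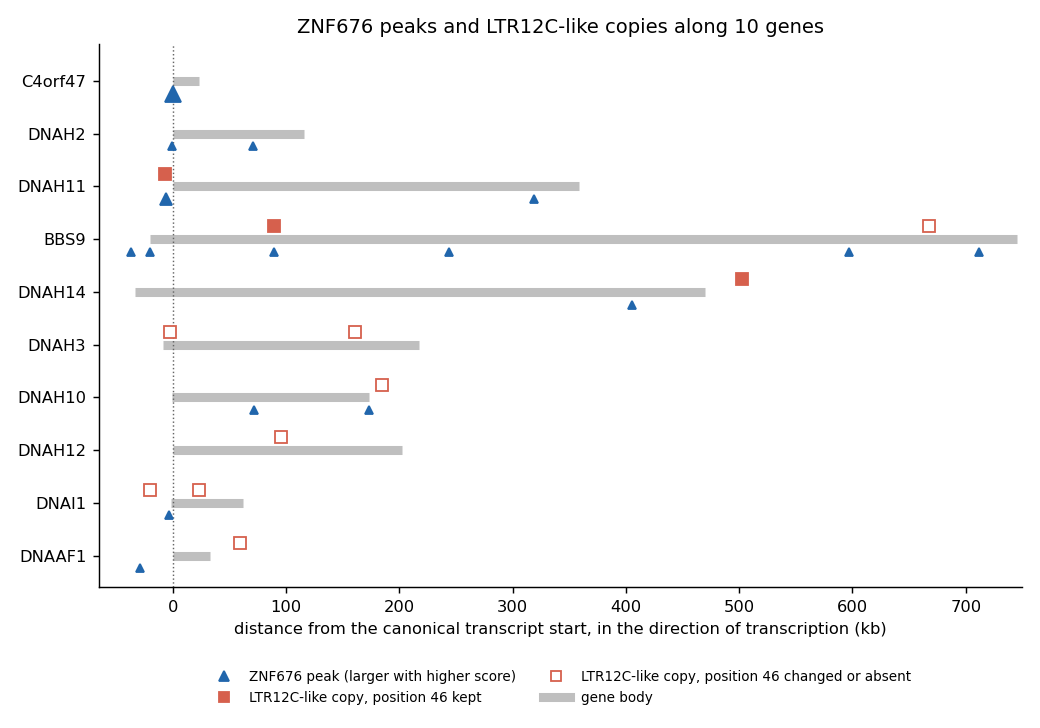
Positions of ZNF676 peaks (triangles, larger with higher score) and LTR12C-like copies (squares) along 10 genes, in kb from the canonical transcript start in the direction of transcription. A triangle meets a square at DNAH11 and BBS9, whose squares are filled (base at position 46 kept), no triangle meets the open squares, and C4orf47 has the largest triangle with no square.

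The words in promoters were counted in RefSeq windows (GRCh38.p14, 250 bp before to 50 bp after a start), on both strands, with 47 of the 54 genes matched. CCAAT was present in 20 (42.6%), against 42.5% of 15289 promoters of protein-coding genes. GTTGCCATG was present in 2 (4.26%), DNAH1 and DNAH2, against 1.16%, and of these DNAH2 had a ZNF676 peak at its start and DNAH1 had its nearest peak 139283 bp away. The shorter GTTGCC, which every GTTGCCATG contains and which was counted after the peak at C4orf47 had been seen, was present in 22 (46.8%), against 16.2%. The 22 include C4orf47 and DNAH2, while the other 20 had no ZNF676 peak at a start. A match of letters is a description and not a binding site.

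Beyond the 54, a further list of 73 cilium genes (other axonemal, IFT, BBS and transition-zone genes, transport motors, and regulators of cilium formation such as FOXJ1 and RFX3) was read in the same way. Of these, 4 had a ZNF676 peak at a start (5.48%, 1.51 to 13.4%), 11 in the body (15.1%, 7.77 to 25.4%) and 28 within 50 kb (38.4%, 27.2 to 50.5%). The shares over all protein-coding genes were 8.24, 15.6 and 34.8%, each inside its interval. Genes of like GC content gave 4.76, 10.2 and 24.8 genes in these places. None of the 73 had a ZNF728 peak in any place. The 4 with a ZNF676 peak at a start were GAS8, a subunit of the nexin-dynein regulatory complex (218.71, shared with a start of DBNDD1), DYNC2I2, an intermediate chain of dynein-2 (126.1), SPAG1, a dynein arm assembly factor (89.46), and RSPH6A, a radial spoke protein (85.68).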

How the data were processed

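Per the labels and the methods of the study, the authors aligned each library to hg19 (GRCh37) using Bowtie2, discarded low-quality alignments and those in blacklisted or high-input regions, and ran MACS on each library with a total input of earlier work as control. The deposited score of each peak was used as the authors gave it, to describe or filter peaks within a list. Every score was above 80, and no such filter is stated in the sources used here. The 4 ZNF676 peaks on chromosome Y were not counted at any gene, but they are part of the 6142 peaks in values for the whole list.

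The members, lists and windows were chosen with earlier results of these data known. Transcript starts came from GENCODE release 44 lifted to GRCh37. Copies of LTR12C were aligned with blastn 2.17.0 (E-value at most 1e-10), and alignments at most 300 bp apart were joined. Genes named in the text were those with a start peak of either list, a bound LTR12C-like copy or a ZNF728 peak, the 5 with the highest-scoring body peaks, and DNAH3, DNAH11, DNAH12, DNAI1 and C4orf47, which the study names; the remaining genes are given by count, range or single values. No test was made, since there was 1 library per protein, and intervals cover sampling or counting only. Alternatives varied the filter on scores, the overlap required, the windows, the starts and the matching of genes. Counting was tested on simulated data. Python 3.11.15 was used with pysam 0.24.0, SciPy 1.17.1 and NumPy 2.4.6. Other data of the study were not analysed here, and the sequences of the LTR12C-like copies are not reported here.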

Additional observations from a re-analysis of the deposited data

How the results depend on the processing

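Of 41 alternative values, 31 stayed within 1.5 times the value reported. With only peaks that reach the median score of the list, 10 genes kept a ZNF676 peak in the body (9.11% of all protein-coding genes) and 16 within 50 kb (21.6%), and 0 had a ZNF728 peak in the body or within 50 kb. A window of 10 kb gave 12 genes for ZNF676 (16.2%) and 0 for ZNF728, and a window of 100 kb gave 31 (50.7%) and 2. Canonical starts alone gave 17 genes for ZNF676 within 50 kb (29.6%) and 0 for ZNF728. Without matching on GC content the number given by other genes at a start was 4.46, and with quintiles of GC content and of gene length in place of deciles of GC content the number in the body was 11.6, while quintiles of GC content alone, added after seeing the data, gave 6.75. With C4orf47 left out of the list, also added later, 2 of 53 genes had a ZNF676 peak at a start, 15 in the body and 24 within 50 kb. Counting only copies that keep the base at position 46, chosen after seeing the data, left 1 bound of 2 within 50 kb. No paired analysis was possible because there was 1 library per protein and no result comes from a test. The lists give neither counts nor an untagged control, so a gene or an LTR12C-like copy without a peak may still be bound below the threshold of the peak caller.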
